A study of Macaca mulatta with 6 samples.

Results

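The beta and alpha2delta subunits are the accessory proteins of voltage-gated calcium channels, and the 8 genes that encode them, CACNB1 to CACNB4 and CACNA2D1 to CACNA2D4, were followed in cortical libraries from rhesus monkeys given morphine or saline. They were found by their symbols among the 23191 rhesus gene identifiers of the expression table. All 8 were present, and all 8 had a mean of at least 10 normalized counts over the 6 libraries, the minimum for testing, which 16595 genes met.

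Polyadenylated RNA was sequenced in 3 libraries from the morphine group and 3 from the saline group, from cells labelled as neurons purified from the cortex of male Macaca mulatta aged 3 to 4 years. Animals of the morphine group received subcutaneous doses over 90 days, 3 each day, starting with 3 mg/kg and reaching 15 mg/kg from day 29. Control animals received 0.5 mL/kg of saline, also 3 times each day over 90 days. No genotype or further agent is named in the labels. The study asked how prolonged morphine exposure alters chromatin architecture, and these libraries hold its gene expression data. The protocol names 4 animals, 2 in each group, so the 3 libraries of a group cannot come from 3 animals, and at least 2 of them share an animal. The p-values below therefore measure the spread between libraries, are too small as tests over animals, and cannot tell morphine apart from differences between animals.

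A high-voltage-activated calcium channel consists of a pore-forming alpha1 subunit joined by a beta subunit in the cytoplasm and an alpha2delta subunit on the outer face of the membrane. The beta subunit binds the loop between the first and the second repeat of the pore protein. It helps the pore protein reach the surface, influences how its gate opens and inactivates, and is a target of several kinase signals. The alpha2delta subunit promotes trafficking of the channel to the presynaptic terminal, and alpha2delta-1 and alpha2delta-2 are the binding sites of the analgesic and antiepileptic drugs gabapentin and pregabalin. Presynaptic calcium channels are in turn a classic target of opioid receptors, whose G protein beta-gamma subunits inhibit them.

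With morphine, no member passed the main test, limma with Benjamini-Hochberg adjustment over all 16595 genes at a threshold of 0.05, against 27.9% of all tested genes. At an unadjusted p under 0.05, 3 of the 8 stood out, all of them beta subunits, against 41.8% of all tested genes. These were CACNB2 and CACNB4, with lower values in the morphine libraries, and CACNB3, with higher values. Of all tested genes 20.4% were higher and 21.4% lower at that unadjusted p. The same 3 were the members whose groups of libraries did not overlap, where 48.7% of all tested genes had groups that did not overlap, 24.1% with higher and 24.6% with lower morphine values. None of the 4 alpha2delta genes was in either count. Tests that model the recovered reads called 2 members: edgeR and DESeq2 each called CACNB3 higher and CACNB2 lower, against 34% and 36.8% of the genes they tested. Of all genes, edgeR called 16.3% higher and 17.7% lower, and DESeq2 18% and 18.9%. With 2 of 8 called, the members stood no higher than the background in these comparisons.

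Other settings of the test called between 0 and 2 members. With an intensity trend in limma CACNB3 passed as higher and CACNB2 as lower, among 34.4% of all genes (16.5% higher, 17.9% lower). The authors' deposited table has the same 2 members past an adjusted p of 0.05, among 29.5% of its genes (14.3% higher, 15.2% lower). With upper-quartile scaling CACNB3 alone passed, among 28% of all genes (14.2% higher, 13.8% lower), and with TMM scaling CACNB4 alone passed, among 27.6% (12.1% higher, 15.5% lower). With a minimum mean of 50, CACNB3 passed as higher and CACNB4 as lower, among 35.8% of all genes (16.5% higher, 19.3% lower). A fit with the replicate number as a block called 0 members and 9.5% of all genes (4.1% higher, 5.4% lower), and a fit without both libraries numbered 2 called 0 members and 0.446% of all genes (0.277% higher, 0.169% lower).

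**Figure D1:**
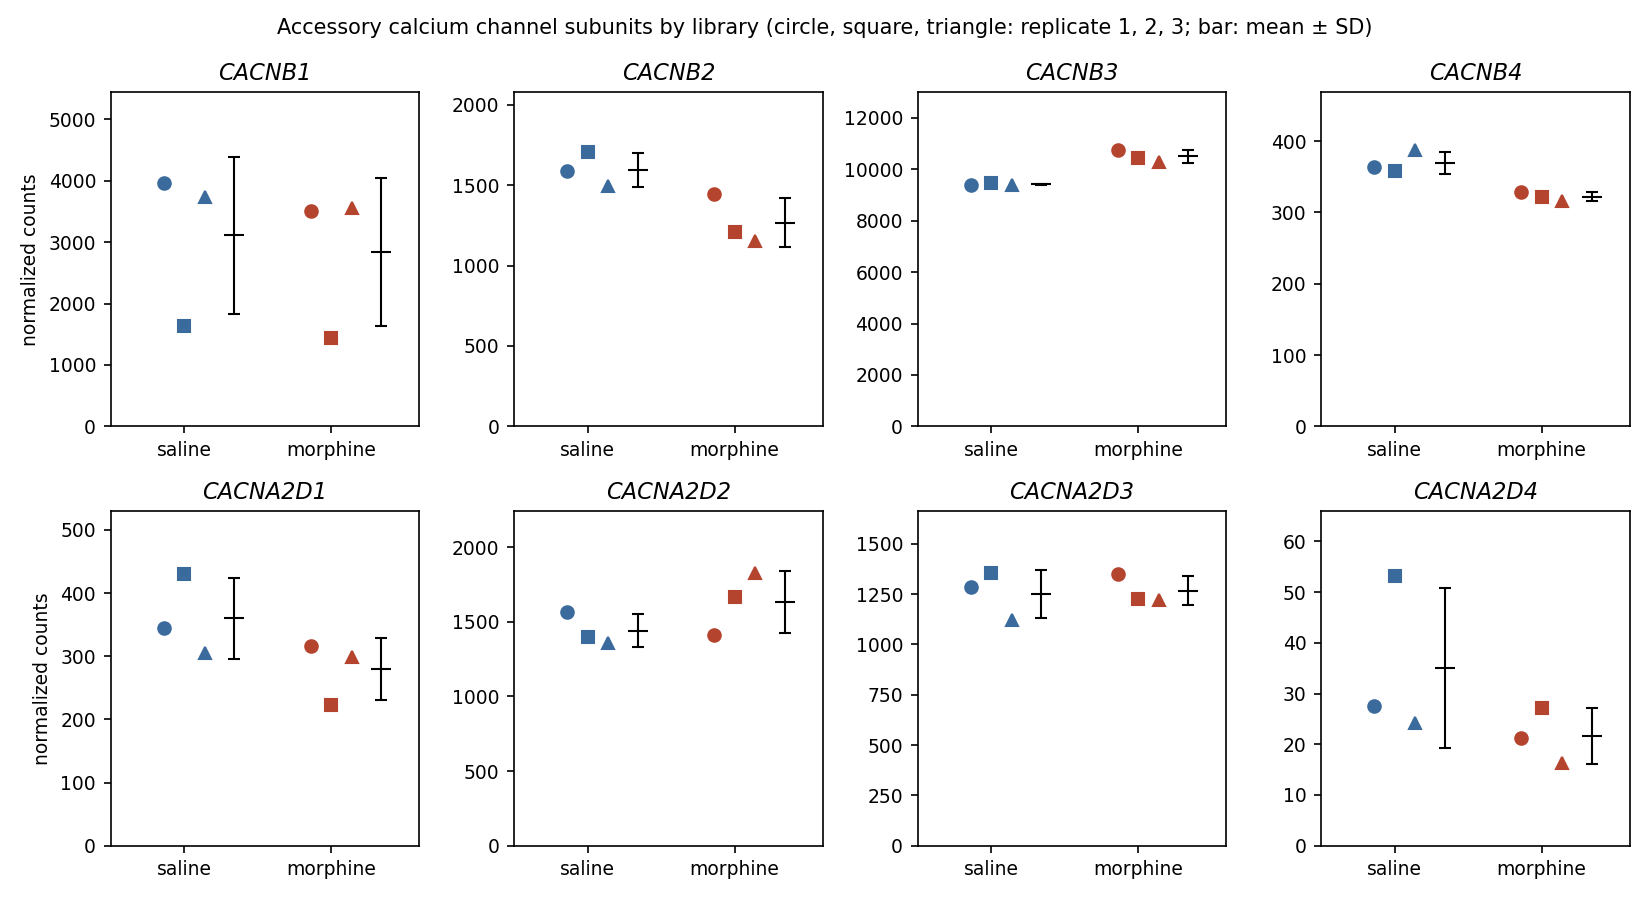
Normalized counts of the 8 accessory subunit genes in each of the 6 libraries, with the scale of each panel starting at 0, circles, squares and triangles for replicates 1, 2 and 3, and the mean ± SD of each group beside the points. The groups are apart for CACNB2, CACNB3 and CACNB4, and in CACNB1 the squares of both groups lie far below the other points.

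CACNB3 (ENSMMUG00000008430) encodes beta3, a subunit found in many N-type and L-type channels of neurons. Replicates 1, 2 and 3 had 10768, 10432 and 10289.6 normalized counts in the morphine group and 9404, 9450.0 and 9404 in the saline group. Every morphine library was above every saline library. The means were 10496 ± 246 and 9419 ± 26.7 (SD, n = 3 libraries per group), a mean 11.4% higher with morphine. On the log2(value + 1) scale the difference was 0.16 ± 0.0467 (SE) with a 95% interval from 0.04 to 0.27. The limma adjusted p was 0.0616, while edgeR on the recovered reads gave an adjusted p of 0.00518 and DESeq2 an adjusted p of 0.000253. The authors' deposited table lists the gene at a log2 fold change of 0.16 with an adjusted p of 0.000133. The difference was thus small and past the threshold only where the error was taken from a model of the reads, from an intensity trend over genes, from upper-quartile scaling or from a fit restricted to more abundant genes. The saline libraries lay closer together than counting allows for on average: their coefficient of variation was 0.284%, where the number of reads alone gives 1.04%.

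CACNB2 (ENSMMUG00000007445) encodes beta2, the main partner of the L-type channel in the heart and also present in brain. Morphine replicates 1, 2 and 3 had 1443, 1207 and 1152 normalized counts, and the saline replicates had 1587, 1703 and 1494. The groups did not overlap, but morphine library 1 came close to saline library 3. The means were 1267 ± 155 with morphine and 1595 ± 105 with saline (SD, n = 3 libraries per group), a relative difference of -20.5%. The log2 difference was -0.34 ± 0.108 (SE), with a 95% interval from -0.61 to -0.06. Its limma adjusted p was 0.0733, against adjusted p-values of 0.0291 in edgeR and 0.00269 in DESeq2. The authors' deposited table gives it a log2 fold change of -0.33 and an adjusted p of 0.00422. Of the limma fits with 1 library left out, CACNB2 passed only in that without morphine replicate 1, the highest library of its group. Its log2 difference was then -0.43 with a limma adjusted p of 0.0407, in a fit that called 16.2% of all genes (6.85% higher, 9.34% lower). With any other library left out its limma adjusted p lay between 0.103 and 0.181.

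CACNB4 (ENSMMUG00000010526) encodes beta4, the subunit whose loss causes the epileptic and ataxic phenotype of the lethargic mouse. In replicate order, normalized counts were 328, 321 and 316 with morphine, and 363, 358 and 387 with saline. All morphine values lay below all saline values. The means of 322 ± 6.16 and 369 ± 15.6 (SD, n = 3 libraries per group) differed by -0.20 ± 0.0547 (SE) on the log2 scale, with a 95% interval from -0.34 to -0.06. The limma adjusted p of 0.0507 was the smallest of the 8 members and lay just beyond the threshold. The models of reads gave a different picture, with adjusted p-values of 0.171 in edgeR and 0.321 in DESeq2, and the authors' deposited table lists 0.397. CACNB4 had between 309 and 368 reads in a library. Its coefficient of variation was 1.91% within the morphine group and 4.21% within the saline group, below the 5.5% and 5.24% that counting such numbers of reads gives by itself. Of 3975 tested genes with a mean within 2 fold of its own, only 1.21% had a smaller spread within groups. The limma value for CACNB4 thus rests on a spread between libraries that was smaller than counting error.

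CACNB1 (ENSMMUG00000000289) encodes beta1, the subunit of the skeletal muscle calcium channel, which is also expressed in brain. Morphine replicates 1, 2 and 3 stood at 3511, 1447 and 3561 normalized counts, and saline replicates 1, 2 and 3 at 3956, 1643 and 3739. In both groups the library numbered 2 stood far below the others, at 40.9% of the mean of morphine libraries 1 and 3 and at 42.7% of the mean of saline libraries 1 and 3. The recovered reads show the same, with 1594 and 1639 reads in the libraries numbered 2 and between 3304 and 4009 in the other 4. The within-group SD of CACNB1 was 0.73 on the log2 scale, where the 3855 tested genes with a mean within 2 fold of its own had a median of 0.07, and 46 of these genes had a larger spread. A gap as wide, with both libraries of a number below the other 4 by at least the 1.10 log2 units seen in CACNB1, was found in 6 of all tested genes for number 2, CACNB1 included, in 8 for number 1 and in 6 for number 3. The group means were 2839.8 ± 1206 and 3112 ± 1277 (SD, n = 3 libraries per group), with a log2 difference of -0.14 ± 0.519 (SE, limma adjusted p = 0.86). In this fit, which ignores the replicate number, the 95% interval from -1.45 to 1.17 leaves room for a change of over 2 fold either way. With the replicate number as a block the difference was -0.14 ± 0.062 (SE, limma adjusted p = 0.205). When both libraries numbered 2 were left out, a step chosen after these values had been seen, the difference was -0.12 ± 0.0727 (limma adjusted p = 0.35, 2 libraries per group). CACNB1 shares its place in the RefSeq annotation of assembly T2T-MMU8v2.0 with a pseudogene, and whether reads were split between them was not tested. In that annotation CACNB2, CACNB3, CACNA2D2 and CACNA2D3 overlap long noncoding RNA genes, and shared reads were not tested there either. No label ties the replicate numbers to a batch or an animal.

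CACNA2D1 (ENSMMUG00000030244) encodes alpha2delta-1, the main site of gabapentin action in pain pathways. Replicates 1, 2 and 3 of the morphine group had 316, 223 and 299 normalized counts, and those of the saline group 344, 431 and 306. The highest morphine library was above the lowest saline library, so that the groups overlapped. The means were 279 ± 49.2 and 360.4 ± 64.1 (SD, n = 3 libraries per group). Of the 8 members it had the second largest log2 difference in size, -0.37 ± 0.189 (SE), and did not pass in limma (adjusted p = 0.206), edgeR (adjusted p = 0.15) or DESeq2 (adjusted p = 0.118). Its 95% interval from -0.85 to 0.11 includes both a fall to 0.556 of the saline level and no change. The libraries numbered 2 were the lowest of the morphine and the highest of the saline values. Without both of them the difference was -0.08 ± 0.0983 (limma adjusted p = 0.626, 2 libraries per group).

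CACNA2D2 (ENSMMUG00000007022) encodes alpha2delta-2, the second gabapentinoid-binding subunit, whose loss underlies the ducky mouse. Normalized counts in replicate order were 1409, 1664 and 1823 with morphine and 1568, 1395 and 1356 with saline. Morphine libraries 2 and 3 were above all saline libraries, and morphine library 1 lay within the saline range. The means were 1632 ± 209 and 1439.8 ± 113 (SD, n = 3 libraries per group), and the log2 difference of 0.18 ± 0.118 (SE) did not pass (limma adjusted p = 0.318). The 95% interval ran from -0.12 to 0.47, so a rise to 1.39 times the saline level remains within it. Without morphine replicate 1 the difference was 0.28 (limma adjusted p = 0.124), and without morphine replicate 3 it was 0.09 (limma adjusted p = 0.608). The gene overlaps RASSF1 in the RefSeq annotation named above, and the sources used here do not say whether counting used strand.

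CACNA2D3 (ENSMMUG00000047365) encodes alpha2delta-3, a subunit required for acute heat pain responses in mice and flies. Among the members it had the smallest difference between groups. Morphine replicates 1, 2 and 3 had 1349, 1227 and 1221 normalized counts, and the saline replicates had 1283, 1353 and 1119. The morphine values all lay inside the saline range. The means of 1266 ± 71.8 and 1252 ± 120.2 (SD, n = 3 libraries per group) gave a log2 difference of 0.02 ± 0.0927 (SE, limma adjusted p = 0.895). Here the interval was narrow enough to bound the change: with 95% confidence over these libraries the morphine level lay between 0.861 and 1.19 times the saline level. The small gene LRTM1 lies within CACNA2D3 in the same annotation.

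CACNA2D4 (ENSMMUG00000017265) encodes alpha2delta-4, best known from photoreceptors. It was the member with the fewest reads, between 17 and 53 in a library. In replicate order the morphine libraries held 21.3, 27.2 and 16.3 normalized counts and the saline libraries 27.6, 53.1 and 24.3. Saline library 2 was far above the other 5, and morphine library 2 exceeded saline library 3. The means were 21.6 ± 5.46 and 35.0 ± 15.8 (SD, n = 3 libraries per group). The log2 difference of -0.62 ± 0.348 (SE) was the largest in size among the members, did not pass (limma adjusted p = 0.244) and went to -0.28 without saline replicate 2. Counting alone gives a coefficient of variation of 21.2% and 17% at the depth of the morphine and saline libraries, against 25.3% and 45.1% measured, so the saline libraries spread beyond counting error. The 95% interval of the log2 difference ran from -1.50 to 0.27. LRTM2 lies within CACNA2D4 in the same annotation and may share its reads.

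Across the 8 members 3 values were higher and 5 lower with morphine. The median log2 difference was -0.17 and the median size of the difference was 0.19, where all tested genes had a median of 0.01 and a median size of 0.26. The typical difference of a member was thus no larger than that of a tested gene. The within-group SD ran from 0.02 log2 units in CACNB3 to 0.73 in CACNB1.

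**Figure D2:**
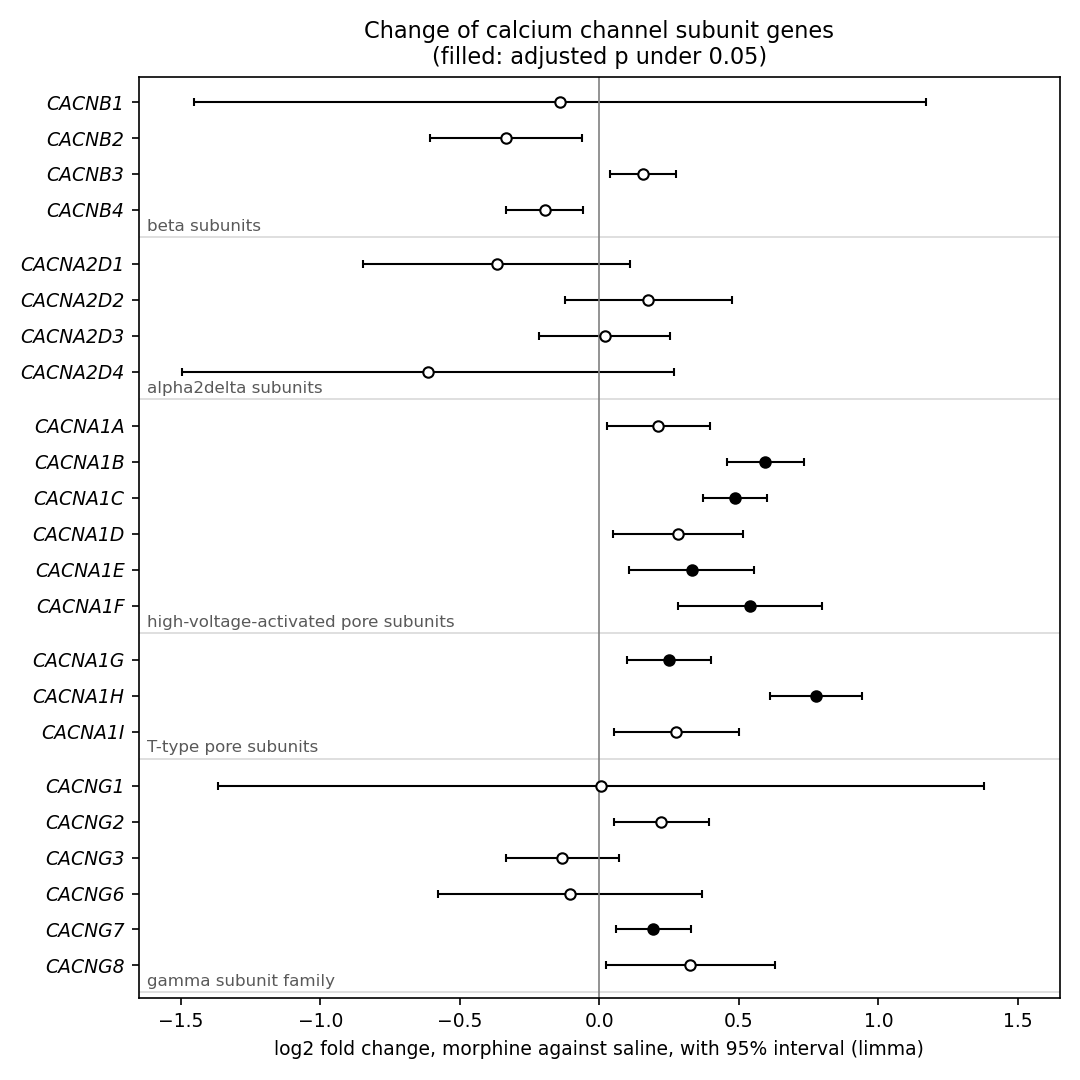
Log2 fold change of each measured calcium channel subunit gene, morphine against saline, with its 95% interval from limma, grouped by subunit family, with filled points for an adjusted p under 0.05. No beta or alpha2delta gene is filled, their intervals reach from -1.50 to 1.17, and the 9 measured pore genes all lie to the right of 0.

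Summed over the family, the beta genes held, in replicate order, 16051, 13407 and 15319 normalized counts with morphine and 15309, 13154 and 15024 with saline. The groups overlapped, and the low libraries numbered 2 are those with little CACNB1. Without CACNB1 the sums were 12539, 11959.9 and 11758 with morphine and 11353, 11511 and 11285 with saline, with each morphine library above each saline library, and CACNB3 makes up most of these sums. The alpha2delta sums overlapped, at 3095, 3142 and 3359 with morphine and 3223, 3233 and 2805 with saline. These sums have no correction for transcript length, and no test was made of them.

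The make-up of the beta family was described by ratios and shares. A ratio of 2 genes within a library does not depend on how libraries are scaled. CACNB2 per CACNB3 was, in replicate order, 0.134, 0.116 and 0.112 with morphine and 0.169, 0.18 and 0.159 with saline, with means of 0.121 ± 0.0118 and 0.169 ± 0.0107 (SD, n = 3 libraries per group). CACNB4 per CACNB3 was 0.0305, 0.0308 and 0.0307 with morphine and 0.0386, 0.0379 and 0.0412 with saline. Neither ratio overlapped between groups, which follows in part from the choice of genes with differences in opposite directions. CACNB2 per CACNB4 did overlap, with means of 3.93 ± 0.405 and 4.33 ± 0.45 (SD, n = 3 libraries per group). Of the reads of CACNB2, CACNB3 and CACNB4 together, CACNB3 held 86.9% ± 0.876 with morphine and 82.8% ± 0.619 with saline, and CACNB2 held 10.5% ± 0.916 and 14.0% ± 0.777 (SD, n = 3 libraries per group). With CACNB1 counted in, CACNB3 held 70.7% ± 6.17 of the beta reads with morphine and 65.3% ± 5.71 with saline, and its groups overlapped. The shares of CACNB4 in all 4 beta genes overlapped too, at 2.05% to 2.40% with morphine and 2.37% to 2.72% with saline, while those of CACNB2 did not, at 7.52% to 9.00% and 9.95% to 12.9%. In the alpha2delta family CACNA2D1 held 8.73% ± 1.55 of the reads with morphine and 11.6% ± 1.47 with saline, and its ratio to CACNA2D2 was 0.224, 0.134 and 0.164 with morphine and 0.22, 0.309 and 0.226 with saline, ranges that overlap. These ratios were chosen after the values had been seen and are given without a test.

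**Figure D3:**
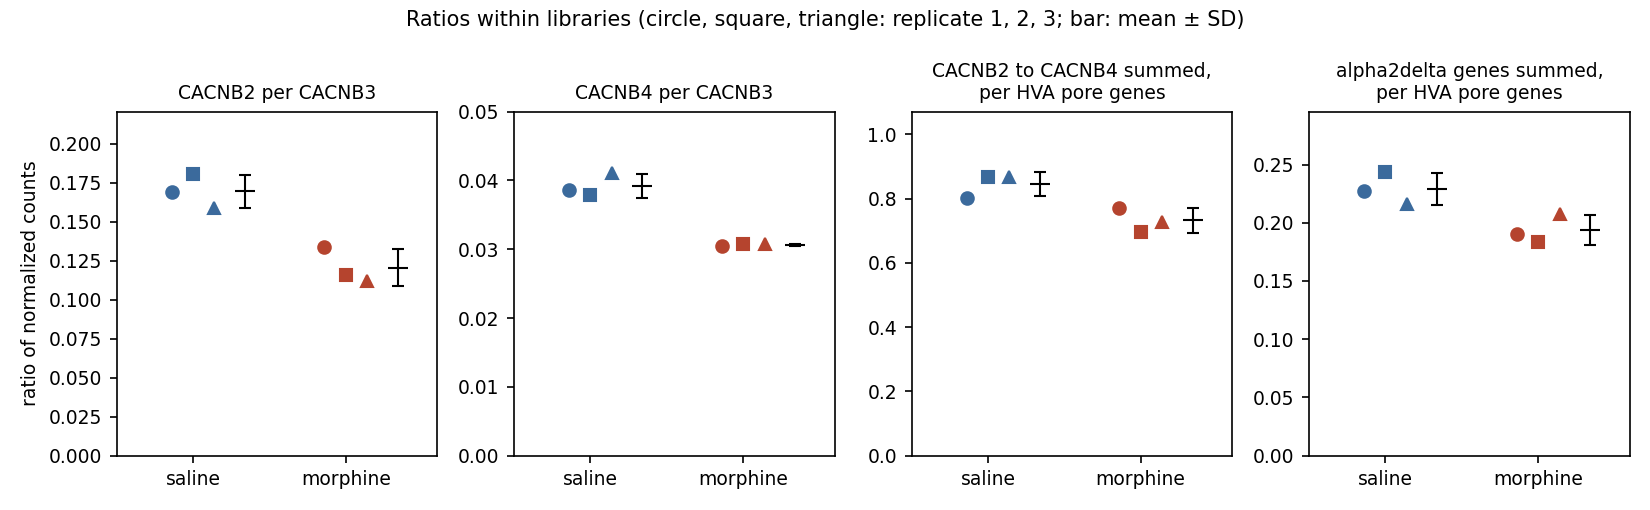
Ratios of normalized counts within each library, with axes from 0, symbols for replicates 1, 2 and 3 and the mean ± SD of each group: CACNB2 and CACNB4 per CACNB3, and the summed beta genes other than CACNB1 and the summed alpha2delta genes per summed high-voltage-activated (HVA) pore genes. In all 4 panels the morphine points lie below the saline points.

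The pore subunits that these proteins accompany were higher with morphine, in contrast to the mixed directions of the accessory genes. Of 6 measured high-voltage-activated pore genes 4 rose and 0 fell in limma, and of 3 T-type pore genes, which need no beta subunit, 2 rose and 0 fell, where 12.9% of all tested genes rose. CACNA1B, the pore of the presynaptic N-type channel, rose by 0.59 ± 0.0545 (SE, log2; limma adjusted p = 0.00356), with 2271 ± 61.2 normalized counts under morphine and 1504 ± 54.1 under saline (SD, n = 3 each). The L-type pore CACNA1C rose by 0.49, the L-type pore CACNA1F by 0.54, the R-type pore CACNA1E by 0.33, and the T-type pores CACNA1H and CACNA1G by 0.78 and 0.25. When 1 library at a time was left out, 2 to 4 high-voltage-activated pore genes and 1 T-type pore gene rose, with CACNA1G past the threshold in none of them (adjusted p from 0.0552 to 0.0954) and CACNA1E and CACNA1F lost in some (highest adjusted p 0.12 and 0.0621). CACNA1I, the third T-type pore, did not pass in limma (log2 difference 0.28, adjusted p = 0.0741). CACNA1S was below the minimum for testing.

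Ratios of the accessory genes to the pore genes were lower with morphine, while the accessory sums themselves were not. The mean alpha2delta sum was 3199 with morphine and 3087 with saline. For all beta genes the means were 14925 and 14496, and without CACNB1 they were 12086 and 11383. The summed alpha2delta genes per summed high-voltage-activated pore genes came, in replicate order, to 0.191, 0.183 and 0.208 with morphine and to 0.228, 0.243 and 0.216 with saline, and the ranges did not overlap. For CACNB2, CACNB3 and CACNB4 together the ratio was 0.772, 0.697 and 0.727 with morphine and 0.802, 0.866 and 0.869 with saline, again without overlap. With CACNB1 included the beta ratio was 0.989, 0.782 and 0.948 with morphine and 1.08, 0.99 and 1.16 with saline, with morphine library 1 just under saline library 2. The pore sum, the denominator of each ratio, was 16518 ± 552 normalized counts with morphine and 13480.0 ± 607 with saline (SD, n = 3 libraries per group). By itself it did not overlap between groups, at 16166 to 17155 and 12990 to 14159. The lack of overlap in these ratios therefore follows in part from the pore sum. CACNA1A held most of that sum, at 11245 ± 500 and 9719 ± 656 (SD, n = 3 libraries per group). Its log2 difference of 0.21 did not pass in limma (adjusted p = 0.086). These ratios were not planned beforehand, and whether the accessory genes differ from the pore genes in their response was not tested.

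Of 6 measured genes of the gamma subunit family, most of which serve AMPA receptors rather than calcium channels, CACNG7 rose by 0.19 (limma adjusted p = 0.0489) and 0 fell. Over all tested genes 12.9% rose and 15% fell in limma. CACNG7 did not pass with TMM scaling or when any 1 library was left out, where its limma adjusted p lay between 0.068 and 0.132. CACNG2, CACNG8 and CACNG3 did not pass in limma, with log2 differences of 0.22, 0.33 and -0.13. In edgeR CACNG7 and CACNG2 passed as higher (adjusted p = 0.00721 and 0.0462). DESeq2 called CACNG7, CACNG2 and CACNG8 higher (adjusted p = 0.000256, 0.0359 and 0.0176). The authors' comparison called CACNG7 and CACNG8 higher (adjusted p = 0.000264 and 0.0299).

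Against shares of 12.9% rising and 15% falling over all tested genes in limma, the beta subunit partners had few calls. Genes of proteins that bind the beta subunit or another part of the channel complex were mostly without a call in limma. Of 5 measured, STAC, an adaptor of L-type channels, rose by 2.13 ± 0.407 (SE, limma adjusted p = 0.0189) at low levels, with 58.3 ± 11.8 normalized counts under morphine and 13.7 ± 8.28 under saline (SD, n = 3 each), and 0 fell. Without 1 library its adjusted p lay between 0.0126 and 0.0633. RIMS1, a scaffold of the active zone that binds beta subunits, had 7702, 3546 and 2403 normalized counts with morphine and 11464, 12757 and 5243 with saline in replicate order, a spread that left the groups overlapping (limma adjusted p = 0.174). RIMBP2 and STAC2 had log2 differences of -0.19 and 0.16 and did not pass in limma or in edgeR (edgeR adjusted p = 0.0558 and 0.0551). DESeq2 called RIMBP2 lower and STAC2 higher (adjusted p = 0.00888 and 0.0125), and so did the authors' comparison (adjusted p = 0.00852 and 0.0143).

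Among 7 measured genes whose products have been reported to bind or resemble alpha2delta subunits, 1 rose and 1 fell in limma. The shares over all tested genes were 12.9% and 15%. GRIN1, the obligatory NMDA receptor subunit reported to form complexes with alpha2delta-1, rose by 0.43 ± 0.0483 (SE, limma adjusted p = 0.00512). LRP1, an endocytic receptor that aids alpha2delta trafficking, had a log2 difference of 0.16 (limma adjusted p = 0.0563), and THBS1, a thrombospondin of the family that binds alpha2delta-1, of 0.30 (limma adjusted p = 0.503).

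**Figure D4:**
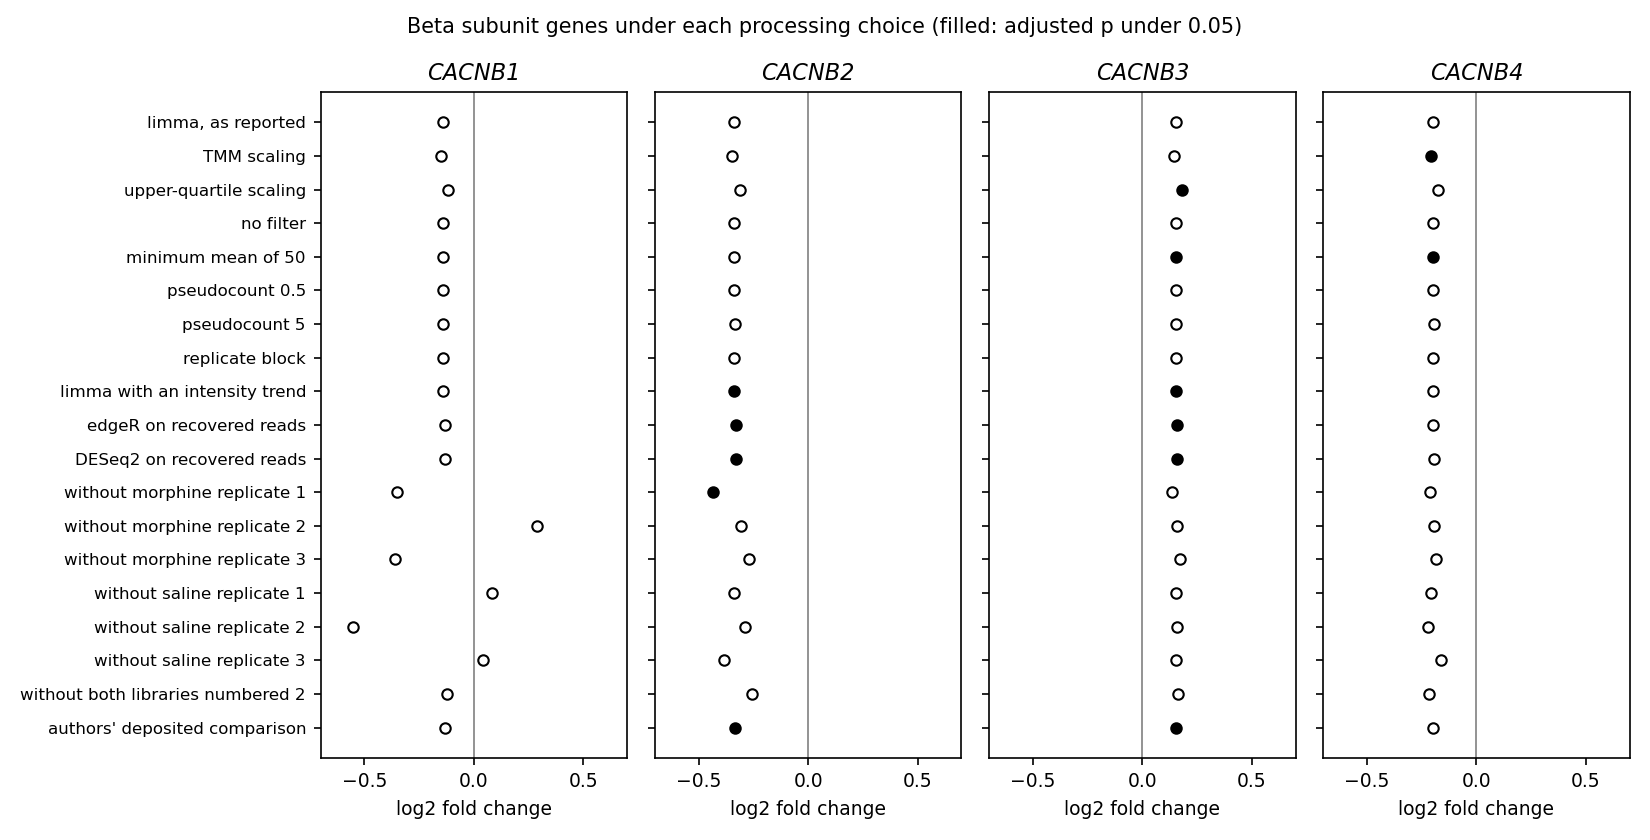
Log2 fold change of the 4 beta subunit genes, morphine against saline, under the test as reported and each other processing choice, with filled points for an adjusted p under 0.05. CACNB3 stays between 0.14 and 0.18 and CACNB2 between -0.43 and -0.26, each filled in some rows only, while CACNB1 runs from -0.55 to 0.29.

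Although the cells are labelled as neurons, markers of glia, vessels and fibroblasts were measured as well. The libraries are bulk samples that hold transcripts of several cell types, so fewer cells of a type and less RNA per cell cannot be told apart, and the part of cell make-up in the members' values was not tested. Depth was 31238653 to 36345095 recovered reads, and correlations between libraries over genes, on the log2 scale, were 0.972 to 0.978 within and 0.950 to 0.957 between groups. No measured marker was at 0 in all libraries. In limma 12.9% of all tested genes rose and 15% fell, the shares beside which the marker counts stand. Of 12 pan-neuronal markers 3 rose and 5 fell, and their summed level was 201718 to 205935 normalized counts in the morphine and 244552 to 255454 in the saline libraries, with SNAP25 and SYT1 holding the most reads. Of 7 excitatory neuron markers 0 rose and 1 fell (sums of 194498 to 196297 and 212836 to 214761), and of 7 inhibitory neuron markers 2 rose and 1 fell (25698 to 27409 and 24681 to 25612). Of 10 astrocyte markers 1 rose and 6 fell (228039 to 275409 and 289635 to 348498), and of 7 microglia markers 4 rose and 1 fell (7822 to 8327 and 5291 to 5642). Of 8 oligodendrocyte markers 3 rose and 3 fell (266512 to 268829.8 and 260599 to 265163), and of 5 precursor markers 3 rose and 0 fell (23086 to 23791 and 19084 to 19217). Of 8 endothelial and mural markers 1 rose and 3 fell (9833 to 10321 and 11901 to 12106), and of 4 fibroblast markers 2 rose and 0 fell (2321 to 2378 and 1386 to 1551).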

How the data were processed

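Gene expression in 6 libraries was taken from the authors' deposited table, and titles gave each sample's group and number. Among the tools in the submitters' processing notes are StringTie, Bowtie2 2.1.0 and DESeq2 1.18.1, beside the build hg19, each without a stated role, so no coordinates are given. Library columns hold normalized counts, a signal that the authors made by scaling each library's reads with its own size factor, as the file headers and values show. The same deposited table holds the authors' log2 fold changes, test statistic (a score) and p-values. Reads were recovered from the step between low values, and 100% of values were multiples of it. The tolerance was 0.001 of a read at low counts and grew in proportion to the count at high ones. Library columns without a sample: 0. A table of gene names matched 15436 of 23191 identifiers (66.6%).

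Groups were compared in R 4.3.3 with limma 3.58.1 on log2(value + 1), group as the only term, over 16595 genes with a mean of at least 10. Changes of low genes are understated on this scale. Tests were two-sided, with Benjamini-Hochberg adjustment. The intervals use the moderated degrees of freedom (prior estimate 1.27). Counting error is from read numbers alone. Alternatives were TMM and upper-quartile scaling, pseudocounts of 0.5 and 5, a minimum mean of 50 or none, a block for replicate number, an intensity trend, edgeR 4.0.16 and DESeq2 1.42.0 on recovered reads, the authors' comparison, an adjusted p under 0.01 and each library left out. The scripts were tested on simulated data. Figures used matplotlib 3.10.9 in Python 3.11.15.

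The members and gene lists were chosen with earlier results of these data known. All 8 members are named, with up to 4 genes of each other calcium channel list by smallest adjusted p and up to 2 markers of a cell type by mean. CACNA1S and CACNA1A were named after their values were seen. A gene chosen this way is left out of the text and not reported here. The lists were the high-voltage-activated pore, T-type pore and gamma genes, beta subunit partners, alpha2delta partners and 9 marker lists, and list genes without a value are not analysed here. Pairs of libraries within a group had a median chi-square over genes of 2.60 to 3.19, against 0.455 for sampling noise, so each was counted as its own library.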

Additional observations from a re-analysis of the deposited data

How the results depend on the processing

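In limma 0 members rose and 0 fell. The count that rose was 1 (CACNB3) with upper-quartile scaling, a minimum mean of 50, an intensity trend, edgeR, DESeq2 or the authors' comparison. The count that fell was 1 (CACNB4) with TMM scaling or a minimum mean of 50, and 1 (CACNB2) with an intensity trend, edgeR, DESeq2 or the authors' comparison. Without 1 library 0 members rose and 0 to 1 fell. CACNB1 turned direction without 1 library (without morphine replicate 2 or saline replicate 1 or 3), its log2 difference running from -0.55 to 0.29. CACNA2D3 turned direction without morphine replicate 1 (-0.03) or saline replicate 3 (-0.059), its log2 fold change lying between -0.059 and 0.078. The other 6 members kept their direction under every alternative run. The summed beta and alpha2delta levels moved by less than the spread between libraries under every alternative. Of all genes tested, 2143 rose and 2488 fell, but 1363 and 1630 with no filter, 634 and 898 at an adjusted p under 0.01, 1072 to 1497 and 1464 to 1684 without 1 library, and 46 and 28 without both libraries numbered 2, which was chosen after seeing the data. In the other calcium channel lists 9 genes rose and 1 fell, but 16 and 2 in DESeq2, 14 and 2 in the authors' comparison, 0 and 0 without both libraries numbered 2, and 4 to 8 and 1 without 1 library. Of the cell type markers 19 rose and 20 fell, but 12 rose with no filter, 2 rose and 0 fell without both libraries numbered 2, and with 1 library left out the counts were 12 to 16 and 14 to 18.

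Over all tested genes no pairing by replicate number was seen: the deviations of same-numbered libraries from their group means correlated across genes at -0.06, -0.004 and -0.03. Single genes such as CACNB1 did follow the number, and whether the numbers mark a batch was not tested. With the replicate block 681 genes rose and 896 fell, 4 genes of the other calcium channel lists rose, 10 markers rose and 10 fell, and 0 members rose or fell.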
